A study of Mus musculus with 8 samples.

Results

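Expression of 10 genes that bring fatty acids to the liver cell, carry them across its membrane or bind them in the cytosol was followed across genotype and diet. They are the fatty acid binding proteins Fabp1, Fabp2, Fabp4 and Fabp5, the membrane receptor Cd36, the fatty acid transport proteins Slc27a1, Slc27a2 and Slc27a4, the lipase Lpl and the lipoprotein receptor Vldlr. They were chosen by symbol, with earlier results of these data known, and make up 10 of the 22946 rows of the count table. Shares of members called, set beside those of all rows, are therefore descriptions and not tests. Each has a row of its own, and all 10 had enough counts to be tested among 12593 rows.

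RNA-seq read counts per gene came from total liver RNA of C57 Black mice that were 8 weeks old when they were put on chow or on a diet rich in fat (high fat diet, HFD), which they ate for another 8 weeks. The 4 groups were wild-type on chow (libraries 1 and 2), wild-type on HFD (libraries 5 and 6), MLL4 het on chow (libraries 3 and 4) and MLL4 het on HFD (libraries 7 and 8). MLL4 is a histone methyltransferase that marks enhancers. The labels give neither the allele nor the sex, and they do not tie each library to an animal of its own. The p-values therefore weigh each difference against the spread between these libraries, estimated over all 4 groups, part of which may be technical. The study set out to find genes whose response to HFD is weaker in MLL4 het livers.

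The liver takes up free fatty acids released from adipose tissue and the fatty acids of lipoprotein particles. Lipoprotein lipase splits triglyceride in the circulation, Cd36 and the Slc27a proteins promote entry of fatty acids, and the cytosolic FABPs bind them and carry them to membranes, mitochondria and the nucleus. Many of these genes are known targets of the nuclear receptors Ppara and Pparg, which bind as partners of Rxr at paired AGGTCA half-sites.

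Total counts ranged from 14142884 to 18928676 per library, and the 10 genes took between 0.394% and 0.648% of them. Levels are in CPM, a count divided by its TMM-scaled library size and multiplied by 1e+06, and a count of 3 corresponded to 0.161 to 0.213 CPM. CPM is not corrected for gene length, so levels are compared between groups and not between genes. Libraries of a group differed by more than sampling noise, with a chi-square per degree of freedom of 14.9 to 16.3. Kmt2d, taken here as the gene of MLL4 and listed as Mll2, had log2 differences in the MLL4 het libraries of 0.01 on chow (95% interval -0.27 to 0.30) and 0.11 on HFD (-0.17 to 0.39). Since its RNA was not measurably lower there, these libraries are called het-labelled. The 8 hepatocyte markers, all tested, summed to between 87247 and 94809 CPM in the chow libraries. In the HFD libraries they summed to between 70209 and 74945 CPM, so the diets did not overlap in this sum. Its largest part was Alb, at 45577 to 61976 CPM. Serpina1e fell from a group mean of 9723 to 2549 CPM in wild-type and from 9740 to 4671 CPM in het-labelled livers. Tat rose from 1677 to 2059 CPM and from 1192 to 1767 CPM in turn. In each genotype 6 of the 8 had a negative and 2 a positive log2 change on HFD. Of these 8, 2 were called lower on HFD in wild-type and 1 in het-labelled livers, beside 2.22% and 1.48% of all rows. The part of these markers in the diet differences below was not tested. Markers of gut epithelium summed to at most 0.232 CPM, with Cdx1, Cdx2 and Sis at 0 in all 8 libraries. Of the 7 fat cell markers, Adipoq, Lep, Plin1, Retn and Slc36a2 reached at most 0.21 CPM in any library. The other markers went higher: Cfd ranged from 0 to 20.95 CPM and Car3, which liver expresses too, from 2663 to 5696 CPM.

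Fabp1, Fabp2 and Slc27a2, which were called higher on HFD (edgeR adjusted p under 0.05) in at least 1 comparison, are shown first with the 250 bases before their RefSeq start sites (build GRCm38.p6, plus strand, written 5′ to 3′). They are printed because these 3 genes share that direction. Capitals mark the half-site AGGTCA and the direct repeat AGGTCANAGGTCA with at most 2 mismatches. Both strands were searched, and a repeat can overlap a half-site.
Fabp1, chr6:71199629-71199878: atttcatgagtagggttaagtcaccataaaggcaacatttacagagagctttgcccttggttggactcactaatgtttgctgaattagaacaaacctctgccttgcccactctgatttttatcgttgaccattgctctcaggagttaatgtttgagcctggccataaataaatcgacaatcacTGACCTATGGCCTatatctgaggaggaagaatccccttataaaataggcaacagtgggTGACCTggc
Fabp2, chr3:122894822-122895071: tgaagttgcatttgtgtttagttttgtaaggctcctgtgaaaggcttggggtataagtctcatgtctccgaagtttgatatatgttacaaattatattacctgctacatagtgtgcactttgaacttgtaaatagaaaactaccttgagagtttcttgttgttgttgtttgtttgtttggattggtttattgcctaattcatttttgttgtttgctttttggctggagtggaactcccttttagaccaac
Slc27a2, chr2:126552774-126553023: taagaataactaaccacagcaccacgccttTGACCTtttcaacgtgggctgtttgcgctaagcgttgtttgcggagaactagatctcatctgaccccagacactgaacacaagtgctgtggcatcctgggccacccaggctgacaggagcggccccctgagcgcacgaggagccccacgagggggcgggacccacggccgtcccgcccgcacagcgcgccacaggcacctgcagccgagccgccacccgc

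The searched window ran from 250 bases before to 50 bases after the start, 300 bases in all. Fabp1 held 2 half-sites on the minus strand, at bases -67 to -62 and -9 to -4 from the start site. The first of them opens a direct repeat with 1 mismatch, read on the plus strand as TGACCTATGGCCT, at bases -67 to -55. Slc27a2 held 1 half-site, at bases -220 to -215. These letters were not in the Fabp2 window. RefSeq windows were found for 7 of the 10 genes. For 5 of them a stretch of 30 bases shortly after the start lay in an annotated transcript. Among these 5 genes, 2 held the half-site and 1 the repeat. The 30 checked bases of the Cd36 window were not found in an annotated transcript. That window held 1 half-site at bases -228 to -223 and 1 repeat with 2 mismatches at bases -63 to -51. Cd36 was not among the members called for diet. Of 32851 mouse promoter windows of the same length, 16.3% held the half-site and 3.86% the repeat. A match is a description of letters and not a measured binding site.

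**Figure D1:**
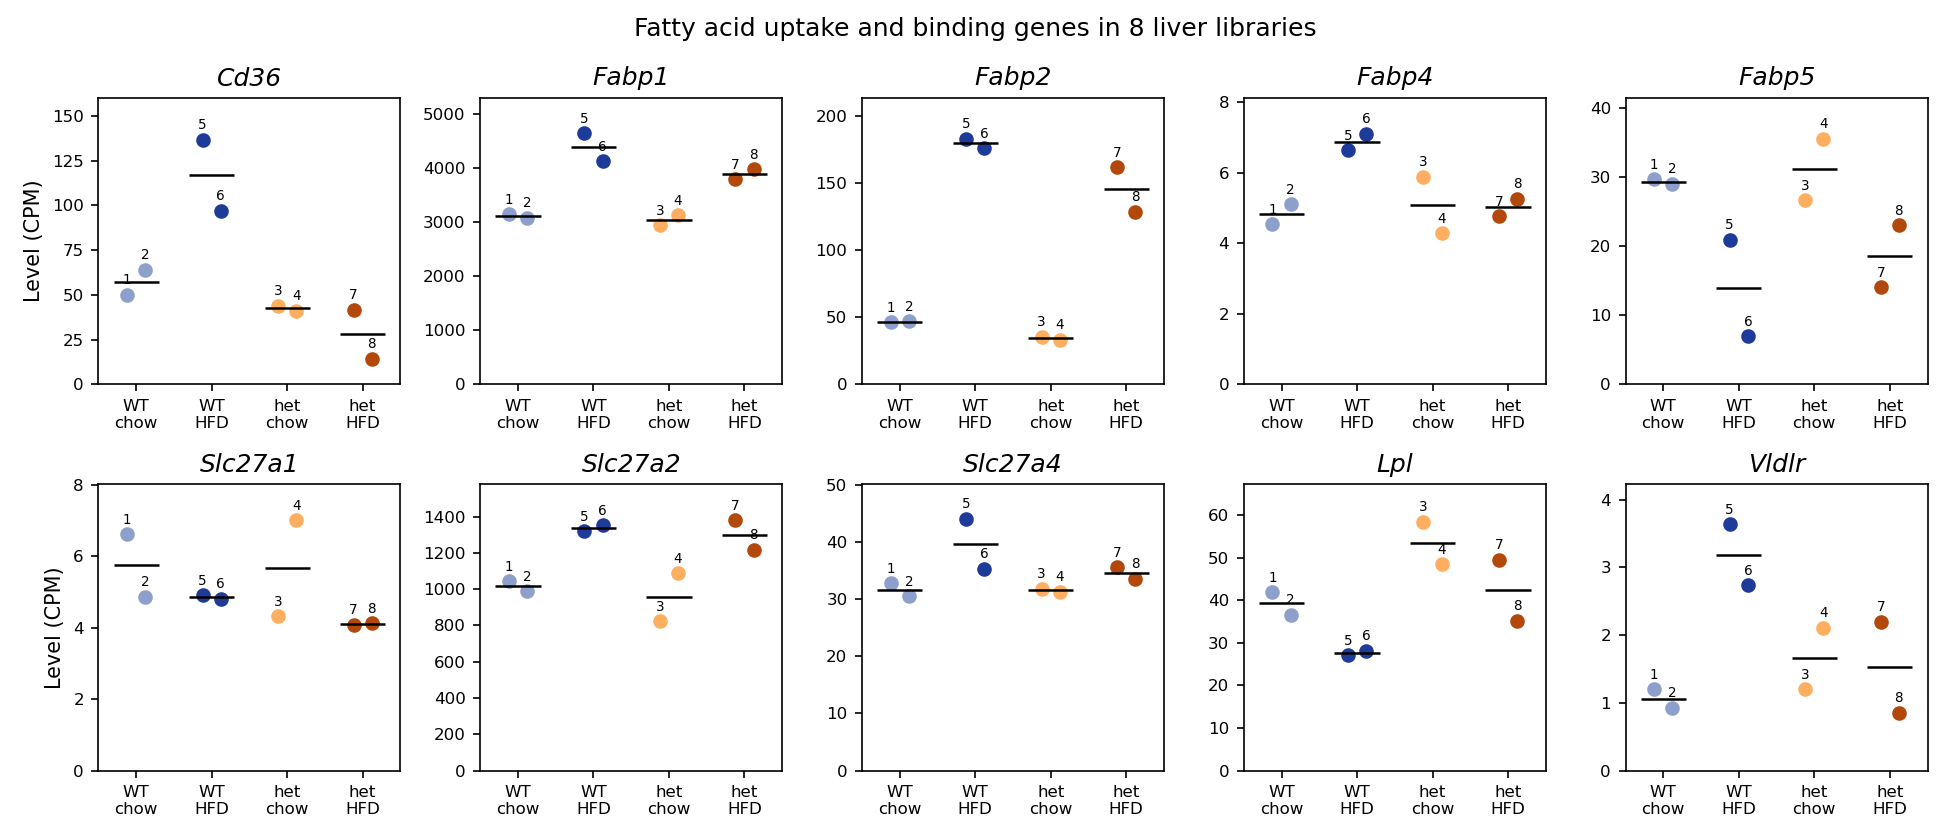
Level in CPM (vertical axes, linear, from 0, each with its own range) of the 10 genes in 8 liver libraries, by group. Points are libraries with their numbers, and black lines are means of 2 libraries. Fabp2 is high in all 4 HFD libraries, while Cd36 is high in the wild-type HFD libraries alone.

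HFD raised Fabp2 about 4-fold in both genotypes and raised Fabp1 in wild-type livers, and these were the members called in a diet comparison within a genotype. In wild-type livers 2 of the 10 members were called, both higher, beside 4.59% of all tested rows (2.37% called higher and 2.22% lower). In het-labelled livers 1 of 10 was called, also higher, beside 3.02% of all rows (1.53% called higher and 1.48% lower). The median log2 change of the 10 members was 0.44 in wild-type livers, beside 0.02 over all rows, and -0.04 in het-labelled livers, beside -0.01 over all rows. In whole liver RNA, a change in the number of cells of a type and a change in RNA per cell cannot be told apart.

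Fabp2, the intestinal fatty acid binding protein, stood at 46.2 and 46.96 CPM in wild-type chow livers and at 183 and 176 CPM on HFD. In het-labelled livers it was at 35.6 and 33.1 CPM on chow and at 162 and 129 CPM on HFD. All HFD libraries were far above all chow libraries, and the 4 groups did not overlap in the order wild-type HFD, het-labelled HFD, wild-type chow, het-labelled chow. The log2 change on HFD was 1.95 ± 0.12 in wild-type livers (SE, 3.85-fold, 95% interval 1.68 to 2.21, edgeR adjusted p = 0.00017) and 2.08 ± 0.12 in het-labelled livers (4.24-fold, edgeR adjusted p = 9.35e-05). Among all 12593 rows, Fabp2 ranked 3 by p in the wild-type comparison. Neither call ended when any 1 library was left out. The changes in the 2 genotypes differed by 0.14 ± 0.16 on the log2 scale, with a 95% interval of -0.23 to 0.50 (edgeR adjusted p = 0.857). An antisense gene, 4933405D12Rik, overlaps Fabp2 and was listed with 0 to 3 counts per library.

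Fabp1, the main cytosolic fatty acid binding protein of hepatocytes, was at 3143 and 3076 CPM in wild-type chow livers and at 4635 and 4122 CPM in wild-type HFD livers. Het-labelled livers were at 2933 and 3123 CPM on chow and 3791 and 3968 CPM on HFD. The HFD libraries were above the chow libraries in both genotypes, and the 2 chow groups overlapped. The log2 rise was 0.49 ± 0.10 in wild-type livers (1.41-fold, edgeR adjusted p = 0.0319). That call ended without library 1, 2, 5 or 6, with adjusted p up to 0.227. In het-labelled livers the log2 difference was 0.36 ± 0.10 (edgeR adjusted p = 0.109). Averaged over both genotypes Fabp1 rose by 0.43 ± 0.07 on the log2 scale (edgeR adjusted p = 0.00799), a call kept without each of the 8 libraries.

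Fabp4, the fatty acid binding protein of fat cells and macrophages, was at 4.54 and 5.10 CPM in wild-type livers on chow, 6.64 and 7.11 there on HFD, 5.88 and 4.29 in het-labelled livers on chow and 4.77 and 5.26 there on HFD. The wild-type HFD libraries were the highest, and the other 3 groups overlapped. The log2 difference on HFD was 0.51 ± 0.18 in wild-type livers (edgeR adjusted p = 0.171) and -0.02 ± 0.19 in het-labelled livers (edgeR adjusted p = 0.975). Fabp5, the epidermal form, was at 29.6 and 28.99 CPM in wild-type livers on chow, 20.9 and 6.94 there on HFD, 26.65 and 35.5 in het-labelled livers on chow and 14.1 and 22.97 there on HFD. All chow libraries were above all HFD libraries, and libraries 5 and 6 differed 3.01-fold from each other. The log2 difference was -1.08 ± 0.41 in wild-type livers (edgeR adjusted p = 0.200). Without library 5 it was -2.10 (edgeR adjusted p = 0.0261), and without library 6 it was -0.49. In het-labelled livers it was -0.76 ± 0.41 (edgeR adjusted p = 0.383).

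Of the Slc27a family, Slc27a2, a transport protein with very long chain acyl-CoA synthetase activity in liver, was called higher on HFD over both genotypes. It was at 1042 and 988 CPM in wild-type chow livers and at 1318 and 1351 CPM on HFD. In het-labelled livers it was at 822 and 1088 CPM on chow and at 1381 and 1218 CPM on HFD. All HFD libraries were above all chow libraries, and the 2 genotypes overlapped on each diet. The log2 rise over both genotypes was 0.42 ± 0.09 (1.34-fold, edgeR adjusted p = 0.0261), and the call ended without library 1, 2, 5, 6 or 7, with adjusted p up to 0.0977. Within a genotype the differences were 0.39 ± 0.13 (edgeR adjusted p = 0.149) and 0.44 ± 0.13 (edgeR adjusted p = 0.124). In this average over genotypes, 3 of 10 members were called, all higher, beside 10.4% of all rows (5.56% called higher and 4.84% lower). They were Fabp1, Fabp2 and Slc27a2, and DESeq2 called 4 members there (1133 rows in all).

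Slc27a4, a transport protein also found in the gut, was at 32.8 and 30.55 CPM in wild-type livers on chow, 44.1 and 35.3 there on HFD, 31.8 and 31.3 in het-labelled livers on chow and 35.6 and 33.6 there on HFD. The HFD libraries were above the chow libraries by a small margin, with log2 differences of 0.33 ± 0.11 (edgeR adjusted p = 0.162) and 0.13 ± 0.12 (edgeR adjusted p = 0.618). Slc27a1, the form of muscle and fat, was at 6.62 and 4.87 CPM in wild-type livers on chow, 4.91 and 4.81 there on HFD, 4.32 and 7.01 in het-labelled livers on chow and 4.08 and 4.12 there on HFD. Its chow libraries spread 1.62-fold in the het-labelled group, and the 2 diets overlapped in wild-type livers. Its log2 differences on HFD were -0.24 ± 0.24 (edgeR adjusted p = 0.657) and -0.47 ± 0.25 (edgeR adjusted p = 0.380).

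Cd36, a scavenger receptor that promotes uptake of long-chain fatty acids, was at 50.1 and 64.1 CPM in wild-type chow livers and at 137 and 97.1 CPM in wild-type HFD livers. In het-labelled livers it was at 43.9 and 41.1 CPM on chow and at 41.7 and 14.4 CPM on HFD. Both wild-type HFD libraries were above every other library, and library 8 was the lowest of all 8. Group means were 57.1 ± 9.92 (SD, n = 2) and 117 ± 28.1 in wild-type, and 42.5 ± 1.96 and 28.0 ± 19.3 in het-labelled livers, on chow and HFD in turn. The log2 difference on HFD was 1.03 ± 0.38 in wild-type livers (2.05-fold, 95% interval 0.18 to 1.89, edgeR adjusted p = 0.176). It was called in a fit of the wild-type groups alone (1.01, edgeR adjusted p = 0.00979). DESeq2 on all libraries did not call it. In het-labelled livers the difference was -0.58 ± 0.39 (95% interval -1.47 to 0.30, edgeR adjusted p = 0.488).

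Lpl, which splits lipoprotein triglyceride, was at 41.8 and 36.6 CPM in wild-type chow livers and at 27.1 and 28.2 CPM on HFD. In het-labelled livers it was at 58.5 and 48.4 CPM on chow and at 49.5 and 35.2 CPM on HFD. The wild-type HFD libraries were the lowest of all, and the het-labelled groups overlapped. The log2 difference on HFD was -0.50 ± 0.16 in wild-type (edgeR adjusted p = 0.133) and -0.33 ± 0.16 in het-labelled livers (edgeR adjusted p = 0.328). Averaged over genotypes it was -0.42 ± 0.11 (edgeR adjusted p = 0.0526). That average was called by DESeq2 (adjusted p = 0.0171), with DESeq2 size factors in edgeR (0.0470), with no filter on low counts (0.0175) and without library 4 or 7 (0.0401 and 0.0134). Vldlr, which binds triglyceride-rich particles, was at 1.197 and 0.928 CPM in wild-type livers on chow, 3.64 and 2.73 there on HFD, 1.205 and 2.11 in het-labelled livers on chow and 2.20 and 0.85 there on HFD. These levels rest on 12 to 63 counts per library. The wild-type HFD libraries were the highest. Het-labelled livers on HFD overlapped both chow groups, and the chow groups lay next to each other without overlapping (1.197 against 1.205 CPM at the nearest). The log2 difference was 1.58 ± 0.43 in wild-type livers (95% interval 0.60 to 2.56, edgeR adjusted p = 0.0794) and -0.07 ± 0.45 in het-labelled livers (edgeR adjusted p = 0.961). The wild-type difference was called in a fit of the wild-type groups alone (edgeR adjusted p = 0.0139) and with no filter on low counts (0.0319). DESeq2 on all libraries did not call it.

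In wild-type livers the diet groups did not overlap for 9 of the 10 members, 7 higher and 2 lower on HFD, all but Slc27a1. The same held for 55.9% of all tested rows, 30.6% higher and 25.2% lower. In het-labelled livers they did not overlap for 6 members, 4 higher and 2 lower, beside 44.7% of all rows (22.3% higher, 22.4% lower). Over both genotypes all 4 HFD libraries lay above all 4 chow libraries for Fabp1, Fabp2, Slc27a2 and Slc27a4 and below them for Fabp5, beside 13.1% of all rows (7.19% higher, 5.88% lower).

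**Figure D2:**
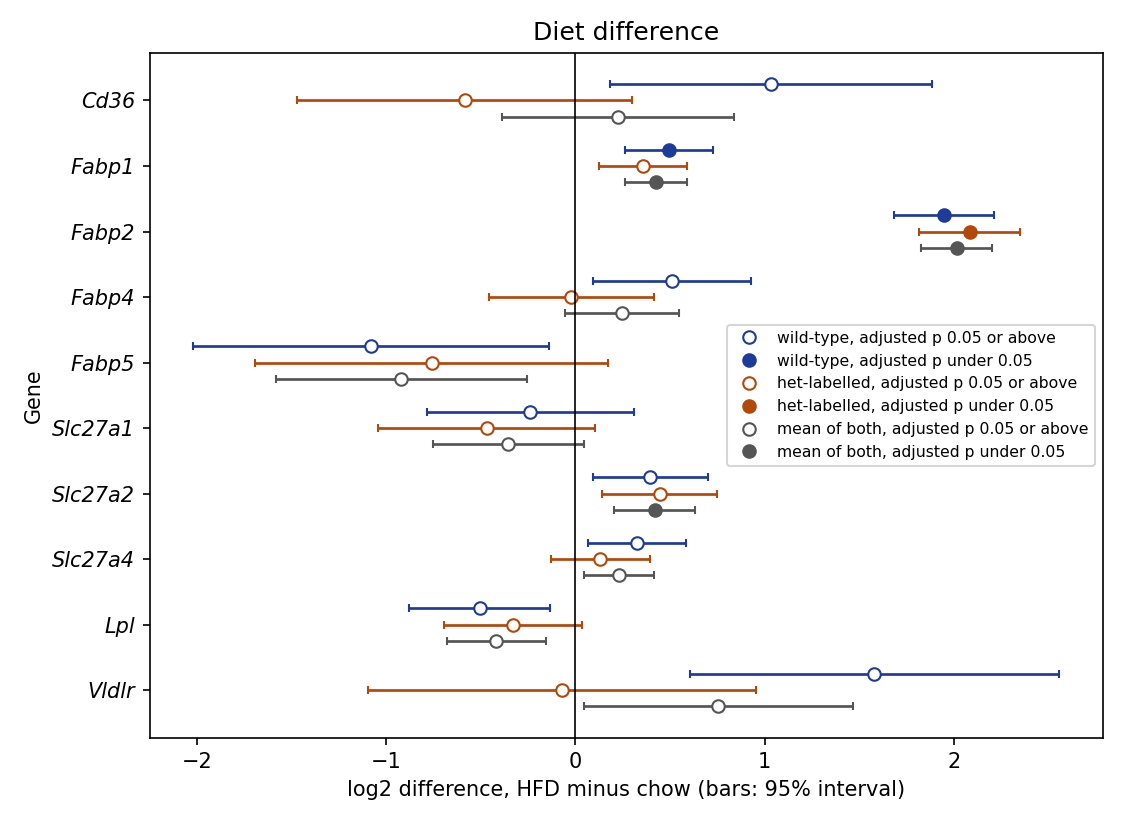
Log2 difference between HFD and chow (horizontal axis) for the 10 genes in wild-type livers, in het-labelled livers and as the mean of both. Points are edgeR estimates, bars are 95% intervals and filled points have an adjusted p under 0.05. Fabp2 stands near 2 in both genotypes.

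Between genotypes, Cd36 and Fabp2 were lower and Lpl was higher in het-labelled livers when both diets were averaged, and no member was called on either diet alone. On the average, 3 of 10 members were called (1 higher, 2 lower), beside 3.24% of all rows (1.21% higher, 2.03% lower). On HFD 0 of 10 members were called by edgeR, beside 0.445% of all rows (0.0953% higher, 0.349% lower), with 5 members at an unadjusted p under 0.05 (13.8% of all rows) and 2 called by DESeq2 (234 rows in all). On chow 0 of 10 were called, beside 0.516% of all rows (0.326% higher, 0.191% lower), with 2 at an unadjusted p under 0.05 (15.3% of all rows) and 0 called by DESeq2 (221 rows in all). The median log2 difference of the members was -0.22 on HFD and -0.01 on chow, beside 0.00 and 0.01 over all rows.

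Cd36 was lower in all 4 het-labelled libraries than in all 4 wild-type libraries, the only member of which that held, beside 8.35% of all rows (4.11% higher, 4.24% lower). The log2 difference averaged over diets was -1.24 ± 0.27 (2.36-fold lower, 95% interval -1.85 to -0.62, edgeR adjusted p = 0.0483). The call ended without library 1, 2, 3, 4, 5 or 6, with estimates between -1.73 and -0.96 over all 8 omissions and adjusted p up to 0.180. On HFD alone the difference was -2.05 ± 0.39 (4.13-fold lower, 95% interval -2.93 to -1.16, edgeR adjusted p = 0.0653), rank 112 by p. DESeq2 gave -2.06 (adjusted p = 0.0106), and edgeR with no filter on low counts gave an adjusted p of 0.00455. Library 8 set much of the size: without library 7 the HFD difference was -3.02 (edgeR adjusted p = 0.00176), and without library 8 it was -1.49 (edgeR adjusted p = 0.0950). On chow the difference was -0.43 ± 0.38 (edgeR adjusted p = 0.638).

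Fabp2 was lower in het-labelled livers by 0.37 ± 0.08 on the log2 scale averaged over diets (1.29-fold, edgeR adjusted p = 0.0450), and the groups did not overlap on either diet. The call ended without library 1, 2, 3, 4, 5, 6 or 8, with adjusted p up to 0.177. By diet the difference was -0.44 ± 0.12 on chow (edgeR adjusted p = 0.129) and -0.30 ± 0.11 on HFD (edgeR adjusted p = 0.277). Lpl was higher in het-labelled livers by 0.53 ± 0.11 on the log2 scale (1.45-fold, edgeR adjusted p = 0.0446), and again the groups did not overlap on either diet. This call ended without library 1, 2, 3, 5, 6 or 7, with adjusted p up to 0.181. By diet the difference was 0.45 ± 0.16 on chow (edgeR adjusted p = 0.248) and 0.62 ± 0.16 on HFD (edgeR adjusted p = 0.149, DESeq2 adjusted p = 0.0458).

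Lpl is made by macrophages and fat cells as well as by muscle, and macrophage markers moved with genotype. Their 12 rows, none at 0 in all libraries, summed to 187 and 169 CPM in wild-type livers on chow, 163 and 172 there on HFD, 519 and 426 in het-labelled livers on chow and 276 and 167 there on HFD. Clec4f, a lectin of Kupffer cells, was at 53.6 and 47.6, 49.5 and 50.2, 123 and 110, and 74.9 and 50.3 CPM in the same order. Of 10 tested macrophage rows, 7 were called higher in het-labelled livers over both diets and 4 on chow, and 7 were called lower on HFD than on chow in het-labelled livers. Over all rows 1.21%, 0.326% and 1.48% were called in these directions. With 1 library left out, these counts ran from 0 to 8, from 0 to 8 and from 0 to 7. On chow 0 were called without library 1, 2, 3 or 6 and 1 without library 5. Over both diets 0 to 2 were called without library 1, 2, 3, 5 or 6. Cd36 and Fabp4 are also expressed in macrophages, and Cd36 was at 43.9 and 41.1 CPM in the het-labelled chow libraries, where the macrophage sum was highest. The part of macrophage RNA in the Lpl, Cd36 and Fabp4 differences was not tested. Muscle markers summed to at most 0.925 CPM, with Actn2, Ckm and Mb at 0 in all libraries. Haemoglobin and Alas2 rows, markers of red blood cells, summed to 320 and 258, 828 and 654, 240 and 253, and 350 and 371 CPM in the same group order, and so were highest where Cd36 and Vldlr were highest. The summed rows did not move alike. In the same group order the joined Hbb-b1 and Hbb-b2 row had means of 47.7, 179, 53.2 and 81.5 CPM. Alas2 had means of 119, 141, 67.9 and 65.6 CPM and was called lower in het-labelled livers over both diets (edgeR adjusted p = 0.000827). The part of red blood cell RNA in the Cd36 and Vldlr values was not tested. Cfd, a fat cell gene, was at 0.50 and 0.58 CPM in wild-type livers on chow and 20.95 and 12.96 there on HFD. In het-labelled livers it was at 0 and 0.07 CPM on chow and 4.83 and 0.28 on HFD. It was called higher on HFD in wild-type livers (edgeR adjusted p = 0.0131) and over both genotypes (edgeR adjusted p = 0.00554). The 7 fat cell markers, 2 of them tested and none at 0 in all libraries, summed to between 2664 and 5701 CPM, nearly all of it from Car3, which liver expresses too. Their part in the Cd36, Fabp4 and Lpl values was not tested. All 9 endothelial markers were tested. In the same group order they summed to 144 and 123, 152 and 144, 190 and 131, and 159 and 118 CPM. In wild-type livers 8 had a positive and 1 a negative log2 change on HFD, and in het-labelled livers all 9 were negative. The medians were 0.22 and -0.18, beside 0.02 and -0.01 over all rows, and edgeR called 0 in either genotype. The part of endothelial RNA in the Cd36, Fabp4 and Vldlr values was not tested.

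**Figure D3:**
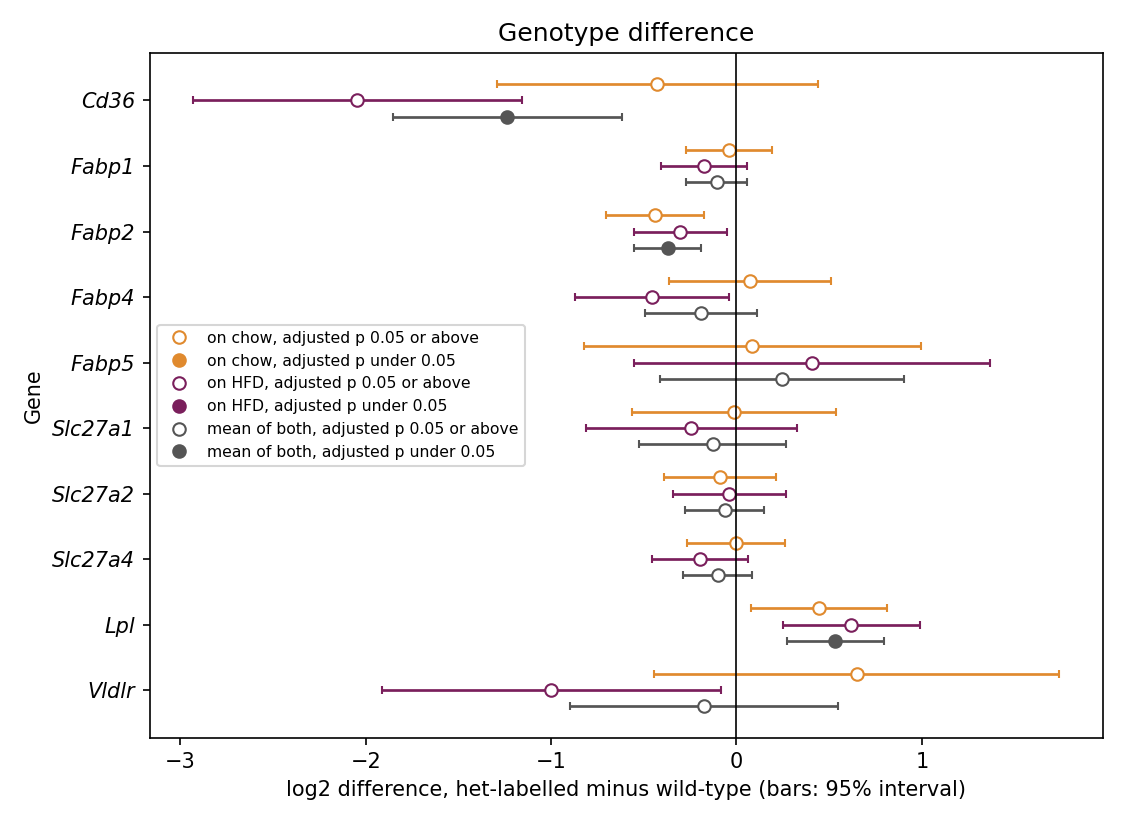
Log2 level in het-labelled minus that in wild-type livers (horizontal axis) for the 10 genes on chow, on HFD and as the mean of both. Points are edgeR estimates, bars are 95% intervals and filled points have an adjusted p under 0.05. Cd36 lies at -2.05 on HFD and Lpl is above 0 on both diets.

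The other 7 members were not called between genotypes. On HFD the log2 differences were -1.0005 ± 0.40 for Vldlr (edgeR adjusted p = 0.322), -0.46 ± 0.18 for Fabp4 (edgeR adjusted p = 0.318) and 0.41 ± 0.42 for Fabp5 (edgeR adjusted p = 0.732). Those of Fabp1, Slc27a1, Slc27a2 and Slc27a4 lay between -0.24 and -0.04. On HFD 7 of 10 members did not overlap between genotypes, 6 lower and 1 higher in het-labelled livers, beside 47.1% of all rows (22.8% higher, 24.3% lower). On chow 4 did not overlap, 2 higher and 2 lower, beside 45.9% of all rows (24% higher, 21.9% lower).

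Whether the response to HFD differed between genotypes was tested with the interaction term, the het-labelled diet change minus the wild-type one. No member was called, and edgeR called 0 of all 12593 rows (0%), with 900 rows at an unadjusted p under 0.05 and 25 called by DESeq2. Among the members, Cd36 and Vldlr had an unadjusted p under 0.05, beside 7.15% of all rows. For Cd36 the term was -1.62 ± 0.54 (95% interval -2.85 to -0.39, edgeR adjusted p = 0.628). Without library 7 it was -2.59 (edgeR adjusted p = 0.0235), and without library 8 it was -1.06 (edgeR adjusted p = 0.798). For Vldlr it was -1.65 ± 0.63 (95% interval -3.07 to -0.22, edgeR adjusted p = 0.676), and for Fabp4 -0.53 ± 0.27 (edgeR adjusted p = 0.702). The wild-type HFD libraries enter both the diet and the genotype comparison, so the high Cd36 and Vldlr values there are shared by both. For Fabp1, Slc27a2 and Slc27a4 the terms were -0.14, 0.05 and -0.19, with a 95% interval of -0.38 to 0.48 for Slc27a2.

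**Figure D4:**
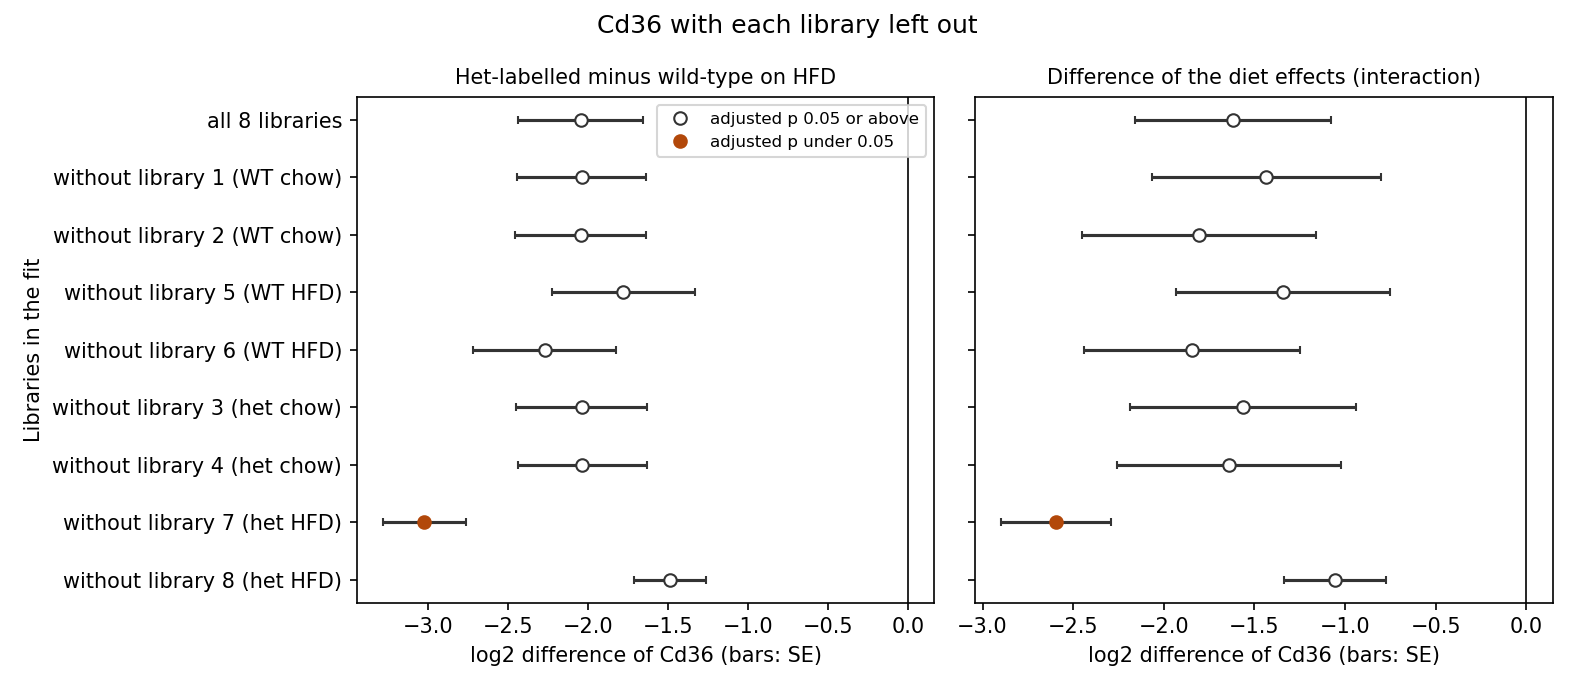
Log2 difference of Cd36 (horizontal axes) in fits of all 8 libraries and with each library left out, for het-labelled against wild-type livers on HFD (left) and for the interaction (right). Points are edgeR estimates, bars are SE and filled points have an adjusted p under 0.05. Both estimates keep their sign, and they are farthest from 0 without library 7 and nearest to 0 without library 8.

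Of 12 further Slc27a and lipid-binding genes, 4 were tested, with a median log2 change on HFD of -0.38 in wild-type and -0.12 in het-labelled livers, beside 0.02 and -0.01 over all rows. Slc27a5, a bile acid and very long chain acyl-CoA synthetase of hepatocytes, was at 895 and 853 CPM in wild-type livers on chow, 730 and 754 there on HFD, 718 and 785 in het-labelled livers on chow and 709 and 724 there on HFD. The wild-type chow libraries were the highest, and the log2 difference on HFD there was -0.24 (edgeR adjusted p = 0.176).

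The next genes activate or hold fatty acids once they are inside the cell. Of 16 tested acyl-CoA synthetase and acyl-CoA binding genes, 1 rose and 1 fell on HFD in wild-type livers, and 1 rose in het-labelled livers, beside 4.59% and 3.02% of all rows called in the 2 genotypes. Their median log2 changes were 0.16 and 0.03, beside 0.02 and -0.01 over all rows. Acbd4, an acyl-CoA binding protein, was at 33.8 and 33.4 CPM in wild-type livers on chow and at 48.7 and 48.4 CPM on HFD, a log2 rise of 0.53 (edgeR adjusted p = 0.0116). It rose by 0.66 in het-labelled livers (edgeR adjusted p = 0.00828), and that call was kept without each of the 8 libraries. Acsm1, a medium-chain acyl-CoA synthetase, changed by -0.55 in wild-type livers (edgeR adjusted p = 0.0174). Both wild-type calls ended without library 1, 2, 5 or 6. Between genotypes Acsf2, another acyl-CoA synthetase, was lower over both diets (log2 difference -0.31, edgeR adjusted p = 0.0483), a call that ended without library 1, 2, 3, 5, 6 or 8, with adjusted p up to 0.180. On HFD 13 of the 16 genes had a negative difference between genotypes, with a median of -0.20 beside 0.00 over all rows. On chow 11 did, with a median of -0.16 beside 0.01, and over both diets 14 did, with a median of -0.14 beside 0.01.

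Genes that mature, activate or inhibit lipoprotein lipase, and related lipases, were called for diet in both genotypes. Of 14 tested, 2 rose and 1 fell on HFD in wild-type livers, and 3 rose and 1 fell in het-labelled livers, beside 4.59% and 3.02% of all rows. The median log2 change of the 14 was 0.12 and 0.22 in the 2 genotypes, beside 0.02 and -0.01 over all rows. Apoc2, the activator of the lipase, was at 106 and 98.9 CPM in wild-type livers on chow, 268 and 251 there on HFD, 94.96 and 104 in het-labelled livers on chow and 174 and 157 there on HFD. It rose by 1.34 on the log2 scale in wild-type livers (edgeR adjusted p = 0.000261) and by 0.73 in het-labelled livers (edgeR adjusted p = 0.00828). On HFD it was lower in het-labelled livers (log2 difference -0.65, edgeR adjusted p = 0.0319), which ended without library 1, 2, 5, 6 or 8.

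Sort1, a sorting receptor that acts on lipases and apolipoprotein B, was at 34.7 and 39.7 CPM in wild-type livers on chow, 13.3 and 13.5 there on HFD, 34.2 and 33.7 in het-labelled livers on chow and 19.4 and 21.3 there on HFD. HFD libraries were below all chow libraries, with log2 changes of -1.47 (edgeR adjusted p = 0.000261) and -0.74 (edgeR adjusted p = 0.0111). The het-labelled call ended without library 7. Lipg, endothelial lipase, rose by 1.54 in wild-type (edgeR adjusted p = 0.0137) and 1.48 in het-labelled livers (edgeR adjusted p = 0.0274), calls that ended without library 1, 2 or 5 and without library 1, 2, 3, 4 or 7. Angptl8, an inhibitor of the lipase listed as Gm6484, rose in het-labelled livers by 2.03 (edgeR adjusted p = 0.0367), a call that ended without library 1, 2, 4, 5, 6 or 7. Averaged over diets, Apoc2 was lower in het-labelled livers (log2 difference -0.34, edgeR adjusted p = 0.0325), a call that ended without library 1, 2, 3, 5, 6 or 8.

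Of 10 tested lipoprotein receptors and their modifiers, edgeR called 0 in all 7 comparisons. Lrp1, a remnant receptor, ranged from 750 to 921 CPM, and Scarb1, the HDL receptor, from 152 to 217 CPM. At an unadjusted p under 0.05 there were 0 to 2 of them in each comparison. DESeq2 called 0 to 2 of them in each comparison.

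Among 17 tested regulators of fatty acid genes, 1 rose on HFD in wild-type and 3 in het-labelled livers, beside 2.37% and 1.53% of all rows called higher. Their median log2 change was 0.10 and 0.33 in turn, beside 0.02 and -0.01 over all rows. Averaged over genotypes 5 rose, beside 5.56% of all rows, and none fell in these 3 comparisons. Among them, Srebf1, the activator of lipogenic genes, rose by 2.13 (edgeR adjusted p = 0.00206), Mlxipl by 0.56 (0.00536), Cebpa by 0.46 (0.00702) and Ppara by 0.77 (0.0208). Ppara, the fatty acid-sensing receptor, stood at 228 and 162 CPM in wild-type livers on chow, 372 and 253 there on HFD, 169 and 155 in het-labelled livers on chow and 351 and 242 there on HFD. All HFD libraries were above all chow libraries, as for Fabp1, Fabp2, Slc27a2 and Slc27a4, beside 7.19% of all rows. Its call ended without library 2, 4, 5 or 7, and the calls of Srebf1, Mlxipl and Cebpa were kept without each library. Pparg, known as a direct regulator of Cd36 and Fabp4, was at 11.1 and 11.3, 16.8 and 12.6, 9.78 and 9.32, and 12.98 and 11.02 CPM in the same group order, with a log2 difference on HFD in wild-type livers of 0.39 (edgeR adjusted p = 0.217). Between genotypes Nr1i2, the pregnane X receptor, was lower over both diets (log2 difference -0.49, edgeR adjusted p = 0.0325), which ended without library 1, 2, 3, 5, 6 or 8. Ppara and Pparg are outside the naming rule and were named after their values were seen.

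Across the 8 libraries the members fell into patterns described by Pearson's r of log2 CPM, given without a test because libraries share group and depth. Fabp1 and Fabp2 had r = 0.947, Fabp2 and Slc27a2 0.886, and Fabp1 and Slc27a4 0.871. Cd36 followed Vldlr (r = 0.700) more closely than Fabp2 (r = 0.219). Lpl and Fabp1 had r = -0.762. The rows outside the members most like Fabp2 were Cyp2d40 (r = 0.995), Mfsd2a (0.991) and Acy3 (0.990). Those most like Cd36 were Lrrc8d (0.980), 4931406C07Rik (0.962) and Cdh11 (0.959), those most like Vldlr were BC057079 (0.973), Mecom (0.960) and Lsm1 (0.952), and those most like Fabp5 were Zc3hav1 (0.955), Ugcg (0.953) and Rrp1 (0.952). Each was picked as the highest of all tested rows over only 8 libraries.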

How the data were processed

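The authors deposited whole-number read counts per gene symbol, not normalized, per the file headers and values. The tools named, per the submitters' processing notes, are HTSeq, TopHat2, CASAVA and DESeq, and the build is mm9. How strand and multiply mapped reads were treated is not given in these sources. Of 22946 rows, 374 join several symbols and 5826 hold only 0 counts; none of the 10 members is joined.

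Counts were fitted with edgeR 4.0.16 (R 4.3.3): filterByExpr (12593 rows), TMM factors, 4 group means over 8 libraries, quasi-likelihood tests with 4 residual and 4.77 prior degrees of freedom, and Benjamini-Hochberg adjustment over all tested rows, called under 0.05. SE and 95% intervals were derived from the log2 change and F, and are approximate. All tests were 2-sided. The script was tested on simulated data. Alternatives were DESeq2 1.42.0, its size factors, no filter, fits of 2 groups, unscaled totals and leaving out each library.

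The members and lists were chosen with earlier results of these data known. All members are named, with up to 4 called genes per list and comparison, or else the 2 with the highest mean, and the 3 rows most correlated with each of the 4 members of largest range. Promoter windows come from RefSeq and overlapping genes from GENCODE; neither is of the authors' build. A few genes of the lists are not reported here by name.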

Additional observations from a re-analysis of the deposited data

How the results depend on the processing

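With 2 libraries in each group, single libraries decide many calls, and an arm left with 1 library is assumed to vary like the others. No paired analysis was possible because the library numbers run from 1 to 8 with none shared between groups. Under settings that kept all libraries of a comparison, no member reversed or lost a call. DESeq2 called 3 members for diet in het-labelled livers and 2 for genotype on HFD, and over all rows 234 for genotype on HFD, 221 on chow and 25 for the interaction. With no filter on low counts, edgeR called 680 rows for diet in het-labelled livers, 258 for genotype on HFD (1 member), 314 on chow, 8 for the interaction and 760 for genotype over both diets, and 5 members for diet over both genotypes. Fits of only the 2 groups compared called 1351 rows (6 members) for diet in wild-type livers, 105 for diet in het-labelled livers and 26 for genotype on HFD.

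Leaving out 1 library at a time gave 1 to 4 called members and 98 to 896 called rows for diet in wild-type livers, 1 to 2 members and 144 to 293 rows in het-labelled livers, 0 to 1 members and 12 to 177 rows for genotype on HFD, and 1 to 268 rows on chow. It gave 0 to 1 members and 0 to 14 rows for the interaction, 2 to 4 members and 546 to 1388 rows for diet over both genotypes, and 0 to 2 members and 23 to 722 rows for genotype over both diets. The cause was not tested.

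Uncalled log2 differences changed sign in the same omissions: for diet in het-labelled livers Fabp4 (-0.23 to 0.22) and Vldlr (-0.96 to 0.40); for genotype on HFD Fabp5 (-0.18 to 1.41) and Slc27a2 (-0.13 to 0.0499); for genotype on chow Fabp1 (-0.10 to 0.0046), Fabp4 (-0.17 to 0.27), Fabp5 (-0.15 to 0.28), Slc27a1 (-0.42 to 0.29), Slc27a2 (-0.32 to 0.098) and Slc27a4 (-0.055 to 0.033). For the interaction they were Fabp2 (-0.038 to 0.296), Fabp5 (-0.27 to 1.33), Slc27a1 (-0.53 to 0.18), Slc27a2 (-0.14 to 0.29) and Lpl (-0.095 to 0.398), for diet over both genotypes Cd36 (-0.27 to 0.504), and for genotype over both diets Fabp5 (-0.050 to 0.74), Slc27a1 (-0.33 to 0.023), Slc27a2 (-0.18 to 0.030) and Vldlr (-0.62 to 0.058).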
